A study of Mus musculus with 2 samples.

Results

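The genes described here are 10 genes of cartilage: the matrix genes *Comp*, *Col2a1*, *Col9a1*, *Col11a1*, *Acan*, *Hapln1* and *Matn4* and the transcription factor genes *Sox9*, *Sox5* and *Sox6*. Every probe set that the platform annotation paired with 1 of these genes and no other was taken, which gave 26 probe sets for the 10 genes, out of 18193 genes named on the array. The list was selected on values of the same 2 arrays, because cartilage genes had read higher in *BCL11B*-/- cells, so the differences of its members are a description and no test of it. The cells were mouse embryonic fibroblasts (MEFs) grown from C57BL/6 embryos at embryonic day 12.5, of the genotypes *BCL11B*-/- and *BCL11B*+/+, with 1 Affymetrix mouse genome array for each genotype. Cells of both genotypes were passaged 2 times before use. Both were kept for 12 h in medium that drives adipocyte differentiation, with insulin at 10 μg/ml, the PPARγ agonist pioglitazone at 10 μM, dexamethasone at 1 μM and methylisobutylxanthine at 0.5 mM, in 10% fetal bovine serum. The study's methods also list ascorbic acid in this medium. The knockout cells came from *BCL11B*-/- embryos, and the deleted exons are not named in the sources used here. How many embryos went into a culture, and of which sex, is not given in the sources used here. There were no replicates, so no p-value is given, differences are described by their size, and the number of arrays limits the precision. In whole cultures, more cells of a type and more RNA per cell cannot be told apart.

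Cartilage is laid down by chondrocytes, which arise from mesenchymal cells of the embryo. SOX9 is the factor that commits these cells, and SOX5 and SOX6, which bind DNA but have no activation domain of their own, act beside it on the enhancers of cartilage matrix genes. The matrix is a network of thin collagen fibrils made of types II, IX and XI collagen. It holds aggrecan, a large proteoglycan that is bound to hyaluronan through link protein. Fibroblasts, adipocytes, osteoblasts and chondrocytes share mesenchymal precursors, and the study asked how loss of BCL11B alters the path of such cells toward adipocytes.

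*Bcl11b* itself read 5.32 to 7.40 in *BCL11B*-/- MEFs and 6.79 to 8.77 in *BCL11B*+/+ MEFs over its 4 probe sets, on the log2 scale, and was 2.26- to 2.97-fold lower in the knockout on each. Where these probe sets lie relative to the deleted part is not known here. All 8 fibroblast markers were measured, and *Thy1* with −0.65 was the 1 that differed by at least 1.5-fold. Sets of markers for other cells also differed between the cultures. Lower by 1.5-fold or more in *BCL11B*-/- MEFs were 10 of 13 measured macrophage genes (*Adgre1*, *Cd68*, *Ptprc*, *C1qb*, *Csf1r*, *C1qa*, *C1qc*, *Lyz2*, *Tyrobp* and *Laptm5*, between −0.61 and −0.95), and all 13 were below 0. Their summed linear signal was 3181 in *BCL11B*-/- and 5443 in *BCL11B*+/+ MEFs, and *Aif1* was under the filter on low values, a mean of both arrays of at least 5 log2 units. Higher by 1.5-fold or more were 5 of 9 smooth muscle genes, *Myl9* with 1.08, *Tagln* with 0.83, *Lmod1* with 0.71, *Acta2* with 0.65 and *Cnn1* with 0.59. *Acta2* differed by 0.19 as the mean over its 3 probe sets. The other 4 fell short, *Mylk* with 0.34, *Smtn* with 0.25, *Myh11* with 0.14 and *Des* with 0.0. Their list had a summed signal of 10136 in *BCL11B*-/- and 6345 in *BCL11B*+/+ MEFs. The adipocyte genes were mixed, with 4 of 6 measured genes below 0, 2 above 0 and a median of −0.62. Lower by 1.5-fold or more were *Lpl* with −0.97, *Pparg* with −0.71 and *Cd36* with −0.71. *Cebpa* with −0.53, *Adipoq* with 0.56 and *Fabp4* with 0.31 did not reach 1.5-fold. As the mean over its probe sets *Fabp4* differed by 0.06. *Lpl* made up most of the summed signal of this list, and the 5 other genes summed to 1516 in *BCL11B*-/- and 1449 in *BCL11B*+/+ MEFs. Of 3 measured genes of neurons, *Stmn2* with 0.65 and *Tubb3* with 0.61 were higher, but *Stmn2* differed by 0.43 as the mean over its probe sets. Of skeletal muscle genes 1 of 2 was lower (*Actc1*, −0.81; *Myod1* and *Myog* were under the filter), and of epithelium and endothelium none of 4 and none of 1 differed by that size. *Xist*, which is expressed from the inactive X chromosome of female cells, had 4.80 log2 units in *BCL11B*-/- MEFs against 10.80 in *BCL11B*+/+ MEFs on its brightest probe set. The Y-linked *Eif2s3y* had 8.97 in *BCL11B*-/- MEFs against 7.89 in *BCL11B*+/+ MEFs. Control probe sets at the 3′ end of β-actin exceeded those at its 5′ end by 1.47 log2 units in *BCL11B*-/- MEFs and by 1.64 in *BCL11B*+/+ MEFs. The part of these differences between the cultures in the values below was not tested.

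The promoters of members that differed most, as far as a sequence was at hand, are shown first, with that of *Matn4*, the member that was lower, for comparison. They are taken from RefSeq on build GRCm38.p6 and span 250 bases before to 50 bases after the annotated start of the gene, written 5′ to 3′ on the strand of the gene. That table matched 7 of the 10 members with 14 promoters, and *Comp*, *Col2a1* and *Sox9* are not among them. Capitals mark the core of a SOX binding motif (ACAAAG, or ACAATG, or TCAAAG, or TCAATG, on either strand) and the GC box (GGGCGG, on either strand). These motifs share no letters in the places marked here. The 4 promoters are those of *Col11a1* at chr3:114030290-114030589 on the plus strand, of *Hapln1* at chr13:89540386-89540685 on the plus strand, of *Col9a1* at the upstream of its 2 starts, chr1:24177360-24177659 on the plus strand, and of *Matn4* at the upstream of its 2 starts, chr2:164405111-164405410 on the minus strand.
Col11a1: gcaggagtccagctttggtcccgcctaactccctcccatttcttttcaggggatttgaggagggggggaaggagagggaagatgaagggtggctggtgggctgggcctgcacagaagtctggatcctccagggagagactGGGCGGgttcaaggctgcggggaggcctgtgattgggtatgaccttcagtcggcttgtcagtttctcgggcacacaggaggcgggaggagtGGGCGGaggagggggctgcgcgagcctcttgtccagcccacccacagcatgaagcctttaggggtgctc
Hapln1: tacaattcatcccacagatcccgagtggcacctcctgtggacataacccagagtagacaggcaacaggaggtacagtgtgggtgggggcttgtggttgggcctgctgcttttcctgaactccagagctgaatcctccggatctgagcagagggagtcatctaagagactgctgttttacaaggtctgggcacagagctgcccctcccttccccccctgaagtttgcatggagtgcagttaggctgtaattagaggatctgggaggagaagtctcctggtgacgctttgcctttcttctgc
Col9a1: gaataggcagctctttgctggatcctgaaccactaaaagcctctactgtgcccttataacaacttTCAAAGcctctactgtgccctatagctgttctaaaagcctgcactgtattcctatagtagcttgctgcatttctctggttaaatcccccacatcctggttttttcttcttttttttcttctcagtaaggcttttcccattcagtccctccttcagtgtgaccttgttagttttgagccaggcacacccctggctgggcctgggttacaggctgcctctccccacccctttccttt
Matn4: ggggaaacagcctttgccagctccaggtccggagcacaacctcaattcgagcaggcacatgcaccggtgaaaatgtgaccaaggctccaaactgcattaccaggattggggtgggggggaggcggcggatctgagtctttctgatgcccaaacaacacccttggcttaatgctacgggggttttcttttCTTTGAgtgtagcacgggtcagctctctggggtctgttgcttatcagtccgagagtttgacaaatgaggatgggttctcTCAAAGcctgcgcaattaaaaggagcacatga

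The *Col11a1* promoter held 2 GC boxes, at 110 and 19 bases before the start, and no SOX core. The *Hapln1* promoter held neither motif. The upstream promoter of *Col9a1* held 1 SOX core, 185 bases before the start, and that of *Matn4* held 2, of which 1 lay 61 bases before the start. A SOX core was found in 9 of the 14 member promoters, which belong to 4 genes and of which 6 are starts of *Sox6*, and a GC box in 4. Of 32851 promoters of the same length 44.0% held a SOX core and 35.7% a GC box. Presence of these letters is a description and does not show that a factor binds there, and the cartilage enhancers of these genes, many of which lie outside such windows, were not searched.

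Expression of 6 of the 10 members was at least 1.5-fold higher in *BCL11B*-/- than in *BCL11B*+/+ MEFs, none was lower by that size and 4 were neither. For each gene the probe set of highest mean expression was read. Over all 12331 genes with a mean of at least 5 log2 units, 1.61% were higher and 1.75% were lower by the same rule, and nothing is read from the comparison of these shares because the members were picked from this contrast. Members' differences had a median of 0.77 log2 units, against 0.0 for all measured genes. All 10 members passed the filter on the mean. The median over all probe sets except controls was 5.28 on each array, so passing this filter does not show that a gene is expressed. *Sox5* with a mean of 5.08, *Matn4* with 5.62 and *Acan* with 5.75 lay near that median. Of the higher members, *Hapln1* with 5.75, *Col2a1* with 6.12, *Comp* with 6.13 and *Col9a1* with 6.19 were not far above that median in *BCL11B*+/+ MEFs. Of the 26 probe sets 23 read higher in *BCL11B*-/- MEFs, 2 read lower and 1 was equal. Among the 16 member probe sets with a mean of at least 5, 9 were at least 1.5-fold higher, where 1.40% of all probe sets were. Among these 9 a *Sox5* probe set read 5.36 in *BCL11B*-/- and 4.68 in *BCL11B*+/+ MEFs. It passed the filter only through its *BCL11B*-/- value. Between probe sets of the same gene, the difference varied with a pooled SD of 0.145 (log2), taken from 5543 genes, which holds no variation between cultures.

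**Figure D1:**
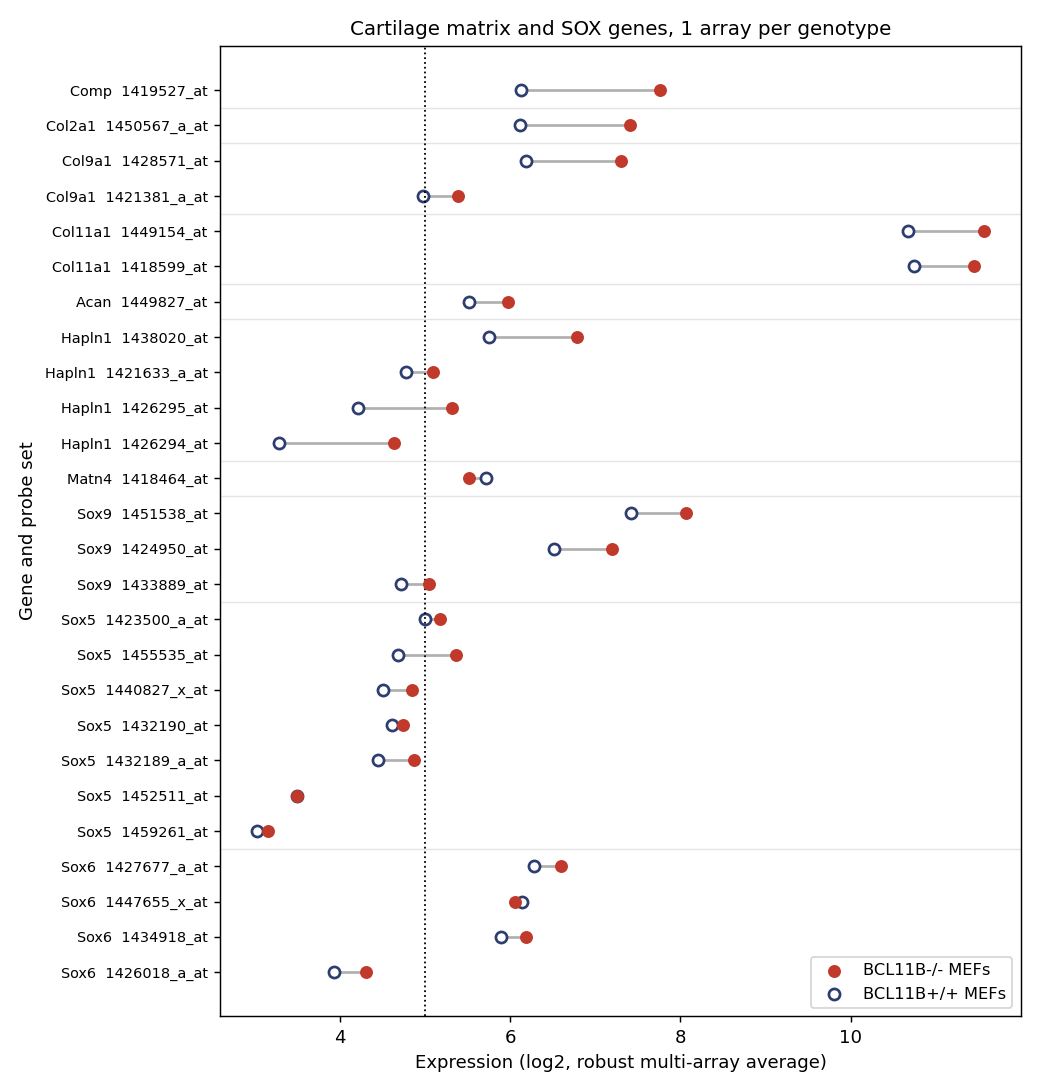
Log2 expression (horizontal axis) on the 26 probe sets of the 10 genes (vertical axis) in *BCL11B*-/- MEFs (filled circles) and *BCL11B*+/+ MEFs (open circles). Each circle is 1 array, so no error is drawn. The dotted line is the filter at 5. Filled circles are on the right for 23 probe sets, farthest for *Comp* (7.76 in *BCL11B*-/- and 6.13 in *BCL11B*+/+ MEFs), and to the left for *Matn4* and 1 probe set of *Sox6*.

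The widest gap among the members was that of *Comp*. This gene encodes cartilage oligomeric matrix protein, a pentamer of the thrombospondin family that binds collagens and is also made in tendon. Its only probe set read 7.76 in *BCL11B*-/- and 6.13 in *BCL11B*+/+ MEFs, a difference of 1.63 or 3.09-fold. It was the 5th highest difference of the 12331 measured genes. Of the other thrombospondin genes none reached 1.5-fold. *Thbs4*, which like *Comp* encodes a pentamer, read 6.85 in *BCL11B*-/- and 6.32 in *BCL11B*+/+ MEFs, a difference of 0.53. The differences of *Thbs1*, *Thbs2* and *Thbs3* were −0.21, 0.01 and −0.25.

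All 5 probe sets of the 3 member collagen genes were higher in *BCL11B*-/- MEFs. *Col2a1* encodes the chain of type II collagen, the main fibril of cartilage. Its only probe set read 7.41 in *BCL11B*-/- and 6.12 in *BCL11B*+/+ MEFs, a difference of 1.29 or 2.45-fold, which ranked 10th among the measured genes. *Col9a1* encodes a chain of type IX collagen, which sits on the surface of type II fibrils. Its brighter probe set read 7.30 in *BCL11B*-/- and 6.19 in *BCL11B*+/+ MEFs, a difference of 1.11, or 2.15-fold. Its dimmer one read 5.39 in *BCL11B*-/- and 4.97 in *BCL11B*+/+ MEFs, a difference of 0.42. *Col9a1* has 2 annotated starts, and which of its transcripts each probe set reads is not known here.

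*Col11a1* encodes a chain of type XI collagen, which sets the width of cartilage fibrils and is also made outside cartilage. It was read on 2 probe sets with nearly equal means of 11.12 and 11.10. The first read 11.57 in *BCL11B*-/- and 10.67 in *BCL11B*+/+ MEFs, a difference of 0.90. The other read 11.45 in *BCL11B*-/- and 10.75 in *BCL11B*+/+ MEFs, a difference of 0.70, so both were past 1.5-fold. In the ranking that the study's methods name, the weighted average difference, a probe set's log2 difference is multiplied by its relative expression level. By this score the *Col11a1* probe sets ranked 9th and 38th from the top, *Comp* ranked 13th and *Col2a1* 45th, so 4 member probe sets were among the 50 highest.

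Of the genes for chains that assemble with these, and of other cartilage collagens, none that was measured reached 1.5-fold. *Col9a3*, the gene of another type IX chain, had 5.27 in *BCL11B*-/- and 5.02 in *BCL11B*+/+ MEFs, a difference of 0.25. *Col9a2* and *Col11a2* were under the filter on the mean, with 4.86 and 3.78 in *BCL11B*-/- MEFs against 4.92 and 3.78 in *BCL11B*+/+ MEFs. *Col27a1*, a cartilage fibrillar collagen gene, differed by −0.38. Of 6 measured fibrillar collagen genes outside cartilage none reached 1.5-fold in either direction, with a median of −0.10. Their highest difference was 0.07 for *Col5a3* and their lowest −0.14 for *Col5a1*, whose product can share fibrils and chains with type XI collagen. *Col1a1* and *Col3a1*, the genes of the bulk collagens of fibroblasts, differed by −0.11 and −0.13.

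**Figure D2:**
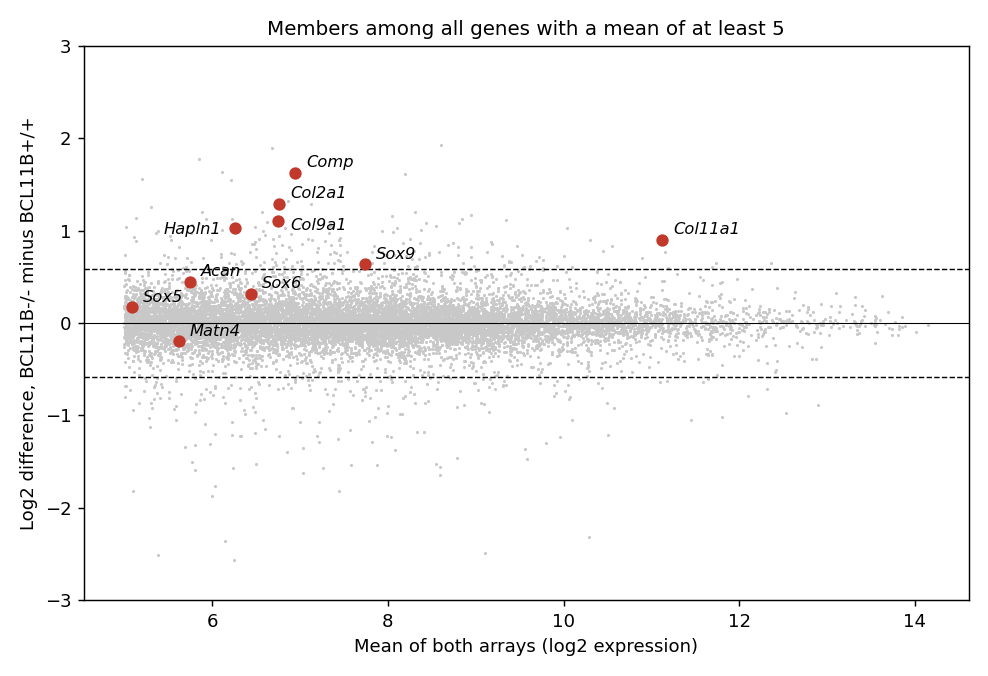
Log2 difference between *BCL11B*-/- and *BCL11B*+/+ MEFs (vertical axis) against the mean of both arrays (horizontal axis, log2) for genes with a mean of at least 5 (grey) and the 10 members (red), with 1 array per genotype. Dashed lines mark 1.5-fold, and 1 gene outside the plotted range of −3 to 3 is not drawn. *Comp*, *Col2a1*, *Col9a1*, *Hapln1*, *Col11a1* and *Sox9* lie above the upper line and *Matn4* lies below 0.

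Of the genes for the proteoglycan part of the matrix, *Hapln1* was higher and *Acan* did not reach 1.5-fold. *Hapln1* encodes link protein, which clamps aggrecan to hyaluronan. Its brightest probe set read 6.78 in *BCL11B*-/- and 5.75 in *BCL11B*+/+ MEFs, a difference of 1.03 or 2.04-fold. Its 3 dimmer probe sets had means under 5 and differed by 0.32, 1.11 and 1.36, so all 4 read higher in *BCL11B*-/- MEFs. *Acan*, the aggrecan gene, had 1 probe set, with 5.97 in *BCL11B*-/- and 5.52 in *BCL11B*+/+ MEFs, a difference of 0.45 or 1.36-fold. At 1.2-fold *Acan* and *Sox6* were counted as higher as well, which gave 8 of 10 members. By this looser rule 8.81% of all 12331 measured genes were higher.

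Relatives and partners of aggrecan and link protein were read as well. Of 5 measured genes of other lecticans, other link proteins and hyaluronan none reached 1.5-fold, from 0.38 for *Has2*, a hyaluronan synthase gene, to −0.26 for *Vcan*, which encodes the fibroblast proteoglycan versican. On its probe set with the largest difference *Vcan* passed the rule, with 6.13 in *BCL11B*-/- and 6.92 in *BCL11B*+/+ MEFs, a difference of −0.79. *Cd44*, the gene of the hyaluronan receptor, differed by 0.26, and *Hapln3* by −0.02. None of 8 genes of chondroitin sulfate synthesis and sulfate supply reached 1.5-fold either. Among them *Papss2*, which makes the sulfate donor, was highest with 0.29 and *Csgalnact1*, which starts the chains, was lowest with −0.24. As the mean over its 4 probe sets *Papss2* differed by 0.08.

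*Matn4* was the member that was lower in *BCL11B*-/- MEFs. It encodes matrilin 4, an adaptor protein of the matrix that is found in cartilage and in other connective tissue. Its only probe set read 5.52 in *BCL11B*-/- and 5.72 in *BCL11B*+/+ MEFs, a difference of −0.20, which is short of 1.5-fold. *Matn2*, the gene of a matrilin with wide expression, differed by 0.08. *Matn1* and *Matn3*, the matrilin genes most restricted to cartilage, were under the filter on the mean, at 3.03 and 4.29 in *BCL11B*-/- MEFs against 3.13 and 4.08 in *BCL11B*+/+ MEFs.

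Further matrix genes found in cartilage, not all of them confined to it, showed no gene higher by 1.5-fold. Of 12 such genes, *Matn1*, *Matn2* and *Matn3* among them, 6 passed the filter, 1 was lower and 5 were neither, with a median of 0.08. The lower one was *Prg4*, which encodes lubricin of the joint surface, with 10.86 in *BCL11B*-/- and 11.49 in *BCL11B*+/+ MEFs, a difference of −0.63. The highest were *Mia* with 0.34 and *Ucma* with 0.28, both genes of small secreted proteins of chondrocytes. *Chad*, *Cnmd*, *Epyc* and *Cilp* were under the filter, with differences from −0.32 to 0.29.

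All 3 probe sets of *Sox9* were higher in *BCL11B*-/- MEFs, by 0.33 to 0.69. The brightest read 8.06 in *BCL11B*-/- and 7.42 in *BCL11B*+/+ MEFs, a difference of 0.64 or 1.56-fold. The next read 7.20 in *BCL11B*-/- and 6.51 in *BCL11B*+/+ MEFs, a difference of 0.69. The dimmest, with a mean under 5, read 5.05 in *BCL11B*-/- and 4.72 in *BCL11B*+/+ MEFs. As the mean over its probe sets *Sox9* differed by 0.55, which is just short of 1.5-fold.

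The partner genes *Sox5* and *Sox6* did not reach 1.5-fold on the probe sets with the highest mean. That of *Sox5* had 5.17 in *BCL11B*-/- and 5.0 in *BCL11B*+/+ MEFs, a difference of 0.17. Another probe set, of mean 5.02 where the first had 5.08, differed by 0.68, with 5.36 in *BCL11B*-/- and 4.68 in *BCL11B*+/+ MEFs. The 5 others had means under 5, of which 4 read higher in *BCL11B*-/- MEFs by 0.13 to 0.42 and 1 was equal at 3.49 in both. The call for *Sox5* thus depended on which of 2 dim probe sets was used. Exactly equal values occurred for 6.59% of all probe sets.

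The brightest probe set of *Sox6* had 6.60 in *BCL11B*-/- and 6.28 in *BCL11B*+/+ MEFs, a difference of 0.32. Its other probe sets differed by 0.37, 0.30 and −0.08, the last on a probe set whose ID carries an _x suffix, which marks probes that may bind other transcripts. The other SOX genes gave no member past 1.5-fold. Of 11 that were measured, *Sox2* was highest with 0.45 and *Sox12* lowest with −0.08, and the median was 0.05. *Sox8* and *Sox10*, the close relatives of *Sox9*, differed by 0.41 and 0.12, with *Sox8* under the filter at 3.18 in *BCL11B*-/- and 2.77 in *BCL11B*+/+ MEFs. *Sox13*, the relative of *Sox5* and *Sox6*, read 6.50 in both. *Sox4* and *Sox11*, SOX genes of mesenchymal progenitors, differed by −0.02 and −0.06.

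**Figure D3:**
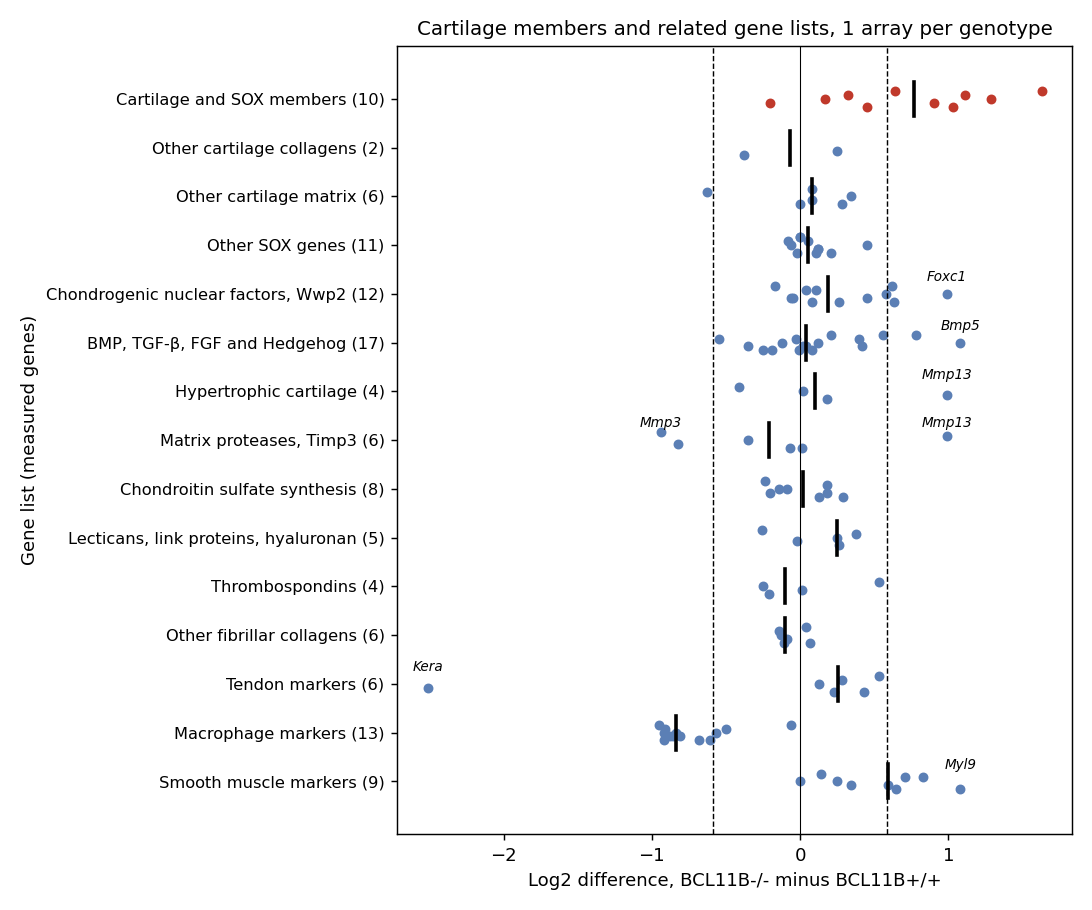
Horizontal axis, log2 difference of *BCL11B*-/- minus *BCL11B*+/+ MEFs for measured genes of the members (red) and of related lists (blue), with the number of genes in brackets (vertical axis), 1 array per genotype. Black bars are list medians and dashed lines mark 1.5-fold. The members' median was 0.77, that of other cartilage matrix genes 0.08 and that of other SOX genes 0.05.

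Of 12 measured nuclear factors and cofactors that act in cartilage development 3 were at least 1.5-fold higher in *BCL11B*-/- MEFs, none was lower and 9 were neither. *Foxc1*, a forkhead factor gene of skeletal mesenchyme, read 8.43 in *BCL11B*-/- and 7.44 in *BCL11B*+/+ MEFs, a difference of 0.99. *Trps1*, which encodes a GATA-type repressor of the growth plate, differed by 0.62, with 8.64 in *BCL11B*-/- and 8.02 in *BCL11B*+/+ MEFs. *Wwp2*, a ubiquitin ligase gene that SOX9 activates in cartilage, differed by 0.63, but by 0.18 as the mean over its 6 probe sets. *Runx1*, a factor gene of early chondrogenic cells, differed by 0.58, which was just short of the rule. *Pax1* and *Pax9*, factor genes of the vertebral cartilage, differed by 0.26 and −0.06. As the mean over its 3 probe sets *Pax9* differed by 0.19, so its direction depended on the probe set. The lowest of the list were *Mef2c* with −0.17, *Pax9* and *Zfp219* with −0.05.

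Of 17 measured signaling genes of the BMP, TGF-β, FGF and Hedgehog pathways, 2 were higher, none was lower and 15 were neither. *Bmp5*, the gene of a bone morphogenetic protein of early skeletal condensations, read 7.56 in *BCL11B*-/- and 6.48 in *BCL11B*+/+ MEFs, a difference of 1.08. *Tgfb3*, which encodes a growth factor used to induce chondrogenesis in culture, read 8.68 in *BCL11B*-/- and 7.90 in *BCL11B*+/+ MEFs, a difference of 0.78. The related ligand gene *Tgfb2* differed the other way by −0.55, short of the rule, and the receptor gene *Tgfbr2* by −0.35. *Grem1*, a secreted BMP antagonist gene, differed by 0.56. *Gdf5*, a ligand gene of the joint region, was under the filter with 4.99 in *BCL11B*-/- and 4.30 in *BCL11B*+/+ MEFs. *Bmp2* differed by −0.25, and the receptor genes *Bmpr1a* and *Bmpr2* by −0.01 and 0.02.

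Genes of late, hypertrophic cartilage and of matrix breakdown gave mixed values. *Mmp13*, which encodes a collagenase of hypertrophic chondrocytes, had 8.56 in *BCL11B*-/- and 7.57 in *BCL11B*+/+ MEFs, a difference of 0.99, and was the 1 higher gene among 4 measured hypertrophic genes. *Col10a1*, the defining collagen gene of these cells, read 5.33 in *BCL11B*-/- and 5.15 in *BCL11B*+/+ MEFs, and *Ihh* was under the filter. *Vegfa* went the other way, with 7.79 in *BCL11B*-/- and 8.21 in *BCL11B*+/+ MEFs, a difference of −0.41, and *Pth1r* differed by 0.02. Of 6 genes of matrix proteases and their inhibitor *Timp3*, *Mmp13* was higher, *Mmp3* and *Adamts5* were lower and 3 were neither. *Mmp3*, the stromelysin gene, differed by −0.94. *Adamts5*, the gene of the main aggrecan-cleaving protease in mouse cartilage, read 9.65 in *BCL11B*-/- and 10.47 in *BCL11B*+/+ MEFs, a difference of −0.82. *Adamts4*, the other aggrecanase gene, differed by 0.01.

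Markers of neighbouring skeletal cell types were set beside the members, since *Comp*, *Col11a1* and *Sox9* are not confined to chondrocytes. Of 6 tendon genes none was higher by 1.5-fold, and *Thbs4* with 0.53, *Tnmd* with 0.43 and *Scx*, the tendon factor gene, with 0.28 were the highest. As the mean over its 2 probe sets *Scx* differed by 0.09. *Kera*, which encodes keratocan, was lower with 4.12 in *BCL11B*-/- and 6.63 in *BCL11B*+/+ MEFs, a difference of −2.51. With its *BCL11B*-/- value below 5, *Kera* passed the filter only through its *BCL11B*+/+ value. The summed linear signal of the tendon genes was 3668 in *BCL11B*-/- and 3059 in *BCL11B*+/+ MEFs. Of the osteoblast genes 2 passed the filter. *Dlx5*, a homeobox gene of bone and cartilage, was higher with 6.79 in *BCL11B*-/- and 5.66 in *BCL11B*+/+ MEFs, and *Sp7*, the osteoblast factor gene, differed by 0.18. The probe set of *Dlx5* carries an _a suffix, and without such probe sets *Dlx5* had no value. The bone matrix genes *Ibsp* and *Dmp1* and the phosphatase gene *Alpl* were under the filter. The part of these cell types in the members' differences was not tested.

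The choice of probe set moved single members more than the direction of the group. With the mean over all probe sets 5 of 10 members were at least 1.5-fold higher, and *Sox9* was the 1 that fell short. With the largest difference of each gene the count was 7, with *Sox5* added. With probe sets of suffix _a, _s or _x left out, *Col2a1* had no value and 6 of 9 members were higher, with *Sox5* among them. At 2-fold the count was 4, namely *Comp*, *Col2a1*, *Col9a1* and *Hapln1*. By the same rules, in this order, 1.15%, 2.10%, 1.59% and 0.349% of all measured genes were higher, against 1.61% by the main rule. Reading the largest difference thus raised the share for all genes as well.

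**Figure D4:**
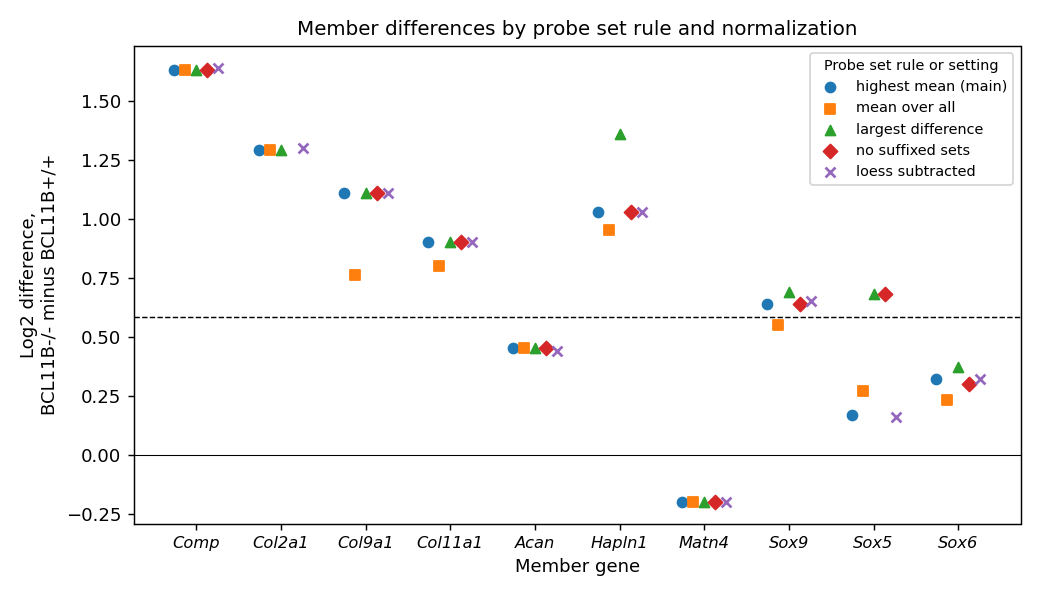
Log2 difference between *BCL11B*-/- and *BCL11B*+/+ MEFs (vertical axis) for each of the 10 members (horizontal axis) under 5 ways of processing, marked by symbol, with 1 array per genotype. The dashed line marks 1.5-fold. *Sox9* falls below it with the mean over all probe sets (0.55) and *Sox5* rises above it with 2 of the rules (0.68), while *Matn4* lies at −0.20.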

How the data were processed

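Total RNA of 2 cultures was measured on 1 Affymetrix mouse genome array each. The authors corrected background, normalized the arrays to each other and summarised probes by RMA (robust multi-array average), and deposited log2 expression. The submitters' notes name R version 3.0.3. Normalization makes the arrays' distributions alike, which hides a change of total mRNA, and background draws differences of dim genes toward 0. The genome build is not given in the sources used here for the arrays, so gene coordinates are limited to those of the RefSeq promoters.

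Of 45101 probe sets 64 were controls. The annotation gave a single gene for 34945 others, several for 932 and none for 9160, and names were taken from the single-gene ones. All 10 member symbols were unchanged in RefSeq. Genes were read on the probe set of highest mean, counted as measured from a mean of 5, and called at 1.5-fold. Differences are *BCL11B*-/- minus *BCL11B*+/+. A summed linear signal is the sum over measured genes of the values taken off the log2 scale. The ranking multiplied the log2 difference by the average expression, rescaled between 0 and 1. Alternatives were 3 other choices of probe set, 2 other filters, 2 other size rules, subtraction of the median difference and of a loess fit with a span of 0.4. Named were all members and, of each related list, genes past 1.5-fold and up to 3 at each end, with a few other genes (such as *Sox8*, *Sox13*, *Matn1*, *Col10a1* and *Adamts4*) chosen after their values were seen. For some lists fewer than 3 genes were named at an end, or none. List genes with no single-gene probe set (such as *Runx2*, *Spp1*, *Gdf6*, *Pthlh*, *Xylt1*, *Bglap*, *Plin1*) have no value. Members and lists were chosen with earlier results of these data known. The counting rule and motif search were tested on simulated data. Python 3.11.15 was used with numpy 2.4.6, pandas 2.3.3, statsmodels 0.14.6 and matplotlib 3.10.9.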

Additional observations from a re-analysis of the deposited data

How the results depend on the processing

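With 1 array per genotype no replicate could be left out, no test was run and no spread between cultures is known. No paired analysis was possible because each genotype has 1 array. Of the alternative values of single members, 57 stayed within 0.145 log2 units, the SD between probe sets. The 4 that moved by more were *Col9a1* with 0.76 as the mean over all probe sets, *Hapln1* with 1.36 and *Sox5* with 0.68 on the probe set with the largest difference, and *Sox5* with 0.68 without suffixed probe sets. No member changed direction under these alternatives. The count of 6 higher members became 2 of 2 with a mean of at least 7, since only *Col11a1* and *Sox9* passed that filter, and lay between 4 and 8 under all others. The share of all genes counted as higher was 1.45% with that filter and lay between 0.349% and 8.81% under all others. The members' median of 0.77 stayed within that SD under each alternative. For the related and marker lists, 16 medians moved by more than that SD and 128 did not, and 31 counts moved by more than 1.5 times and 341 did not. Those of lists described above include the macrophage median, −0.61 with the mean over all probe sets against −0.84, the smooth muscle median, 0.36 against 0.59, and the nuclear factor median, 0.45 with the largest difference or with a mean of at least 7 against 0.18. With the mean over all probe sets, 7 of 13 macrophage, 4 of 9 smooth muscle and 1 of 3 neural genes passed 1.5-fold, against 10, 5 and 2, and the neural median was 0.43 against 0.61. With the largest difference 1 of 5 lectican, link protein and hyaluronan genes was lower, against 0. The cause of these moves was not tested. The loess fit ranged from −0.011 to 0.014 and the median difference was 0.0, so neither altered a count of members.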
